A study of Homo sapiens with 6 samples.

Results

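The cytosolic ribosomal protein genes encode the protein components of the large and small subunits of the ribosome that translates nuclear mRNAs. Members were the autosomal protein-coding genes whose symbol is RPL or RPS followed by a number with an optional A, L or X, together with RPSA, RPLP0, RPLP1 and RPLP2. Kinases and other genes with longer symbols of the same stem were not members. This gave 77 members among 19111 autosomal protein-coding genes of GENCODE release 44, of which 46 belong to the large and 31 to the small subunit. A further 4 genes that match the symbol rule, RPS4X, RPL36A, RPL39 and RPL10, lie on the X chromosome, which the peak lists do not cover, and were not analysed here. Symbols were the only basis of membership, so no measured value entered the rule. The gene set itself was chosen with earlier results of these data known.

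Open chromatin was mapped by ATAC-seq, an assay in which Tn5 transposase cuts accessible DNA and tags it with adapters. MCF-10A is an immortalised, non-tumorigenic human breast epithelial cell line, and all samples were of this line. Of the 3 genotypes, 2 carry a mutation of PIK3CA knocked into MCF-10A, E545K (2 samples) or H1047R (2 samples), and the third is the parental line with wild-type PIK3CA, called WT (2 samples). PIK3CA encodes the catalytic subunit of PI3K alpha. E545K lies in its helical domain and H1047R in its kinase domain. The knock-in lines were maintained without EGF, whereas WT cells were maintained with 20 ng/ml EGF, so genotype and maintenance medium cannot be told apart. All cells then spent 24 h in an assay medium with 0.2 ng/ml EGF and 1% stripped serum, and every medium contained insulin, hydrocortisone and cholera toxin. How many clones stand behind each knock-in line is not stated in the labels. Each genotype is represented by 1 peak list made from both of its samples. No value per sample exists in these lists, sequencing depth is unknown, and no difference between genotypes has a replicate check or a test.

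The E545K list held 89416 peaks, the H1047R list 106747 and the WT list 98910. For each gene only the window around its canonical start was searched, so peaks at starts outside it were not counted. Of 8 basal and epithelial marker genes, 7 were marked by a promoter peak in every list, including KRT5, KRT14 and CDH1, whereas TP63 had none. All 4 luminal markers, including ESR1 and GATA3, were marked in every list too. Among 4 leukocyte markers CD14 was so marked and 3 had none, PTPRC and CD3E among them. Neither endothelial nor fibroblast markers had one in all 3 lists.

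Ribosomal protein genes are transcribed at high rates in growing cells, and their products are needed in nearly equal amounts. Most of their mRNAs begin with a cytosine followed by an unbroken run of pyrimidines, the terminal oligopyrimidine (TOP) motif. Translation of such mRNAs is controlled by mTORC1, a kinase complex that acts downstream of PI3K, through the repressor LARP1. RPS6 is the ribosomal protein that S6 kinases phosphorylate in the same pathway. Control of translation through the TOP motif acts on the mRNA and is not measured by chromatin accessibility.

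The reference sequence around the start sites shows this feature. The following stretches of hg38 run from 100 bases before the annotated start to 20 bases from it, 5′ to 3′ on the gene's strand. RPL28 and RPS12 are shown because their promoter peaks were among the largest of the members, and RPL10A, RPS3, RPL31 and RPL27 because they were among those whose ranks differed most between genotypes. Capitals mark the pyrimidine tract at the start and any match to a motif that was searched, as named after the sequences.
RPL28 (chr19:55385832-55385951, plus strand): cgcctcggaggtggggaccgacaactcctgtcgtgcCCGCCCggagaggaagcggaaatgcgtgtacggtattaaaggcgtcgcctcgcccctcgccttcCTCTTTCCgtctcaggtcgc
RPS12 (chr6:132814469-132814588, plus strand): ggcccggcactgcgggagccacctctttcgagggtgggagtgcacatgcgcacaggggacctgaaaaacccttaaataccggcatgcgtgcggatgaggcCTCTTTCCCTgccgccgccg
RPL10A (chr6:35468301-35468420, plus strand): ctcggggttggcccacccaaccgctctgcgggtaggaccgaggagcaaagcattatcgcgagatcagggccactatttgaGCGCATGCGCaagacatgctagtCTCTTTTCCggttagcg
RPS3 (chr11:75399418-75399537, plus strand): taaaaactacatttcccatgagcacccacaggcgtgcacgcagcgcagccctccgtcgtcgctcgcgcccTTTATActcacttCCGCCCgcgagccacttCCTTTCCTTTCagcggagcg
RPL31 (chr2:101002189-101002308, plus strand): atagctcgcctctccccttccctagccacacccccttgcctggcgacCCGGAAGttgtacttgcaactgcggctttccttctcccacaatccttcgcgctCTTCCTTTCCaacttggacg
RPL27 (chr17:42998319-42998438, plus strand): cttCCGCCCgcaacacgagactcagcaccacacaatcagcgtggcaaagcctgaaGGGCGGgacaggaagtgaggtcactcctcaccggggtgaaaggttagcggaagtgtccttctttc
The tract is the last run of capitals in RPL28, RPS12, RPL10A, RPS3 and RPL31. RPL27 has no tract within 5 bases of its annotated start. The other capitals are SP matches in RPL28, RPS3 and RPL27, an NRF1 match in RPL10A, an ETS match in RPL31 and a TATA box in RPS3.

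A pyrimidine tract, defined as a C followed by at least 4 further pyrimidines and beginning within 5 bases of the annotated start, was present in 63 of 77 members (81.8%, 95% Wilson interval 71.8 to 88.8%). The share was 22.0% among the 12514 coding promoters with a peak in all 3 lists. It was 60.6% among 33 translation factors, whose mRNAs include several known TOP mRNAs, and 20.5% among 78 mitochondrial ribosomal protein genes, which serve the separate ribosome of mitochondria. Of 7 further ribosome-associated genes, FAU and RACK1 among them, 6 had the tract (85.7%), as did 11 of 26 ribosome biogenesis genes (42.3%). In 55 members (71.4%) the tract began exactly at the annotated start, against 5.35% of the open coding promoters. A longer tract, with at least 6 pyrimidines after the C, was present in 59 members (76.6%), against 8.06% of the open coding promoters.

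None of the 4 members that are paralogs of a core ribosomal protein gene, RPS27L, RPL39L, RPL10L and RPL3L, had the tract. RPL10L, RPL3L and RPL39L are best known from testis or muscle, and RPS27L is a target of p53. The stretches of RPS27L, RPL39L and RPL10L are shown for contrast and were chosen after the values were seen. Capitals mark motif matches, which are an ETS and an SP match in RPS27L, SP matches in RPL39L, and a TATA box in RPL10L.
RPS27L (chr15:63157458-63157577, minus strand): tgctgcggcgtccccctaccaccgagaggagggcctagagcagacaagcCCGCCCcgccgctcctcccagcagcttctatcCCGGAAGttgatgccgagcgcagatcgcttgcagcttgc
RPL39L (chr3:187139477-187139596, minus strand): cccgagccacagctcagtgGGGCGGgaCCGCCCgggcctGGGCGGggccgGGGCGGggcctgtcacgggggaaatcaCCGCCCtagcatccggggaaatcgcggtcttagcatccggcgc
RPL10L (chr14:46651762-46651881, minus strand): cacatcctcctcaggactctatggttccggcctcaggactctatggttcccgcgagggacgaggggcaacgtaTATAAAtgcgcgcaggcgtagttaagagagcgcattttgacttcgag

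Short motifs of 10 kinds, those of transcription factors and core promoter elements, were searched on both strands in the 300 bases from 250 before to 50 after each start. No motif contained another, and matches of different motifs could share bases. An ETS match (CCGGAAG) was present in 26 of 77 members (33.8%), against 19.8% of the open coding promoters. A YY1 match (AAGATGG) was present in 14 members (18.2%), against 7.62%, and 13 of the 14 matches lay after the start, at a median of 17 bases downstream. Matches to the ZBTB33 palindrome were found in 5 members (6.49%, against 0.919%), and RPS6 and RPS19 were among them.

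The SP match (GGGCGG) was present in 46 members (59.7%), against 75.1% of the open coding promoters, and members also had a lower G+C content in the same window, with a median of 60.0% against 66.7%. The CCAAT box, searched by these letters, was found at 33.8% against 36.3%, and the TATA box (TATAAA) in 7 members (9.09%) against 5.16%. An AP-1 match (TGANTCA) was found in 1 member, RPL24 (1.30%), against 4.26%. The E-box (CACGTG) occurred in 5 members (6.49%, against 10.0%), the CRE (TGACGTCA) in 4 (5.19%, against 3.50%) and the NRF1 palindrome in 2 (2.60%, against 2.42%). Mitochondrial ribosomal protein genes carried ETS and YY1 matches too, as the plot of shares shows. A match is a run of letters in the reference and not a measured binding site.

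**Figure D1:**
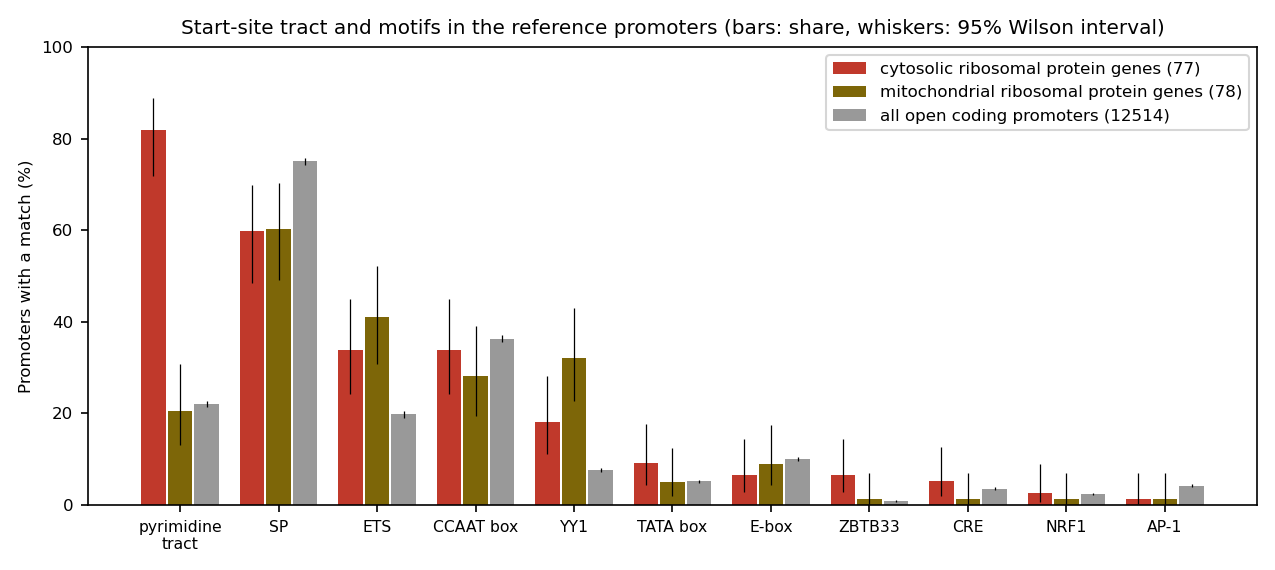
Share of promoters (%) with the pyrimidine tract within 5 bases of the start, or with a motif match from 250 bases before to 50 after it, in cytosolic ribosomal protein genes (red), mitochondrial ribosomal protein genes (brown) and all open coding promoters (grey). Bars give the share and whiskers its 95% Wilson interval. The tract stands at 81.8% in the cytosolic set, 20.5% in the mitochondrial set and 22.0% in all open coding promoters.

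Promoters were called open when a peak overlapped the window of 1 kb on either side of a gene's canonical start. Of 77 members, 75 were open in all 3 lists (97.4%, 95% Wilson interval 91.0 to 99.3%), beside a background of 65.5% of all autosomal protein-coding genes. The other 2, RPL10L and RPL3L, had no promoter peak in any list, and no member was open in some lists only. All 31 small subunit members and 44 of 46 large subunit members were open. No member therefore gained or lost its promoter peak in E545K or H1047R relative to WT. Over all genes the share open in E545K and not WT was 1.72%, in WT and not E545K 1.42%, in H1047R and not WT 1.78% and in WT and not H1047R 1.03%.

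The other gene groups of the translation machinery were open at like shares. Of 78 mitochondrial ribosomal protein genes 77 were open in all 3 lists, with MRPL23 open in none. Of 33 translation factors 32 were open, with EIF3C open in none. All 26 ribosome biogenesis genes and all 7 further ribosome-associated genes were open. Pseudogenes of ribosomal proteins, most of them intronless copies inserted elsewhere in the genome (1439 of 1515 are annotated as processed), were open in all 3 lists in 73 cases (4.82%).

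The promoter peak was taken as the peak of the window with the largest area. This area, a value of the authors' for each peak, sums the curve of the peak caller across it and grows with both height and width. Among members it ranged from 1013 to 11316 in E545K, with a median of 4028 against 3217 for all open coding promoters. The median was 4207 against 3746 in H1047R, and 4596 against 3586 in WT. Because the lists are not scaled to each other, each promoter was then given a percentile rank by area within its list, among the 12514 coding promoters open in all 3 lists, where 0 is the smallest and 100 the largest. The members' median rank was 63.7 in E545K, 58.0 in H1047R and 65.5 in WT, against 50 for all. In each list the members thus stood above the middle, and lowest in the H1047R list.

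By area, the members' share stood above that of all open coding promoters more clearly in the upper 50% than in the upper 25%. The upper 25% of promoters by area held 21 of 75 members in E545K (28.0%, 95% Wilson interval 19.1 to 39.0%), 19 in H1047R (25.3%, 16.9 to 36.2%) and 24 in WT (32.0%, 22.5 to 43.2%). The upper 50% held 51 in E545K (68.0%), 49 in H1047R (65.3%) and 53 in WT (70.7%). By the authors' −log10 p at the summit, which measures height alone, the upper 25% held 37 members in E545K (49.3%), 32 in H1047R (42.7%) and 35 in WT (46.7%). Among members the median summit −log10 p was 8.24 in E545K, 8.59 in H1047R and 8.91 in WT, against 7.10, 7.61 and 7.80 for all open coding promoters in the same lists. The median width was 1519 bp in E545K, 1618 bp in H1047R and 1639 bp in WT, against 1467, 1525 and 1467 bp for all.

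**Figure D2:**
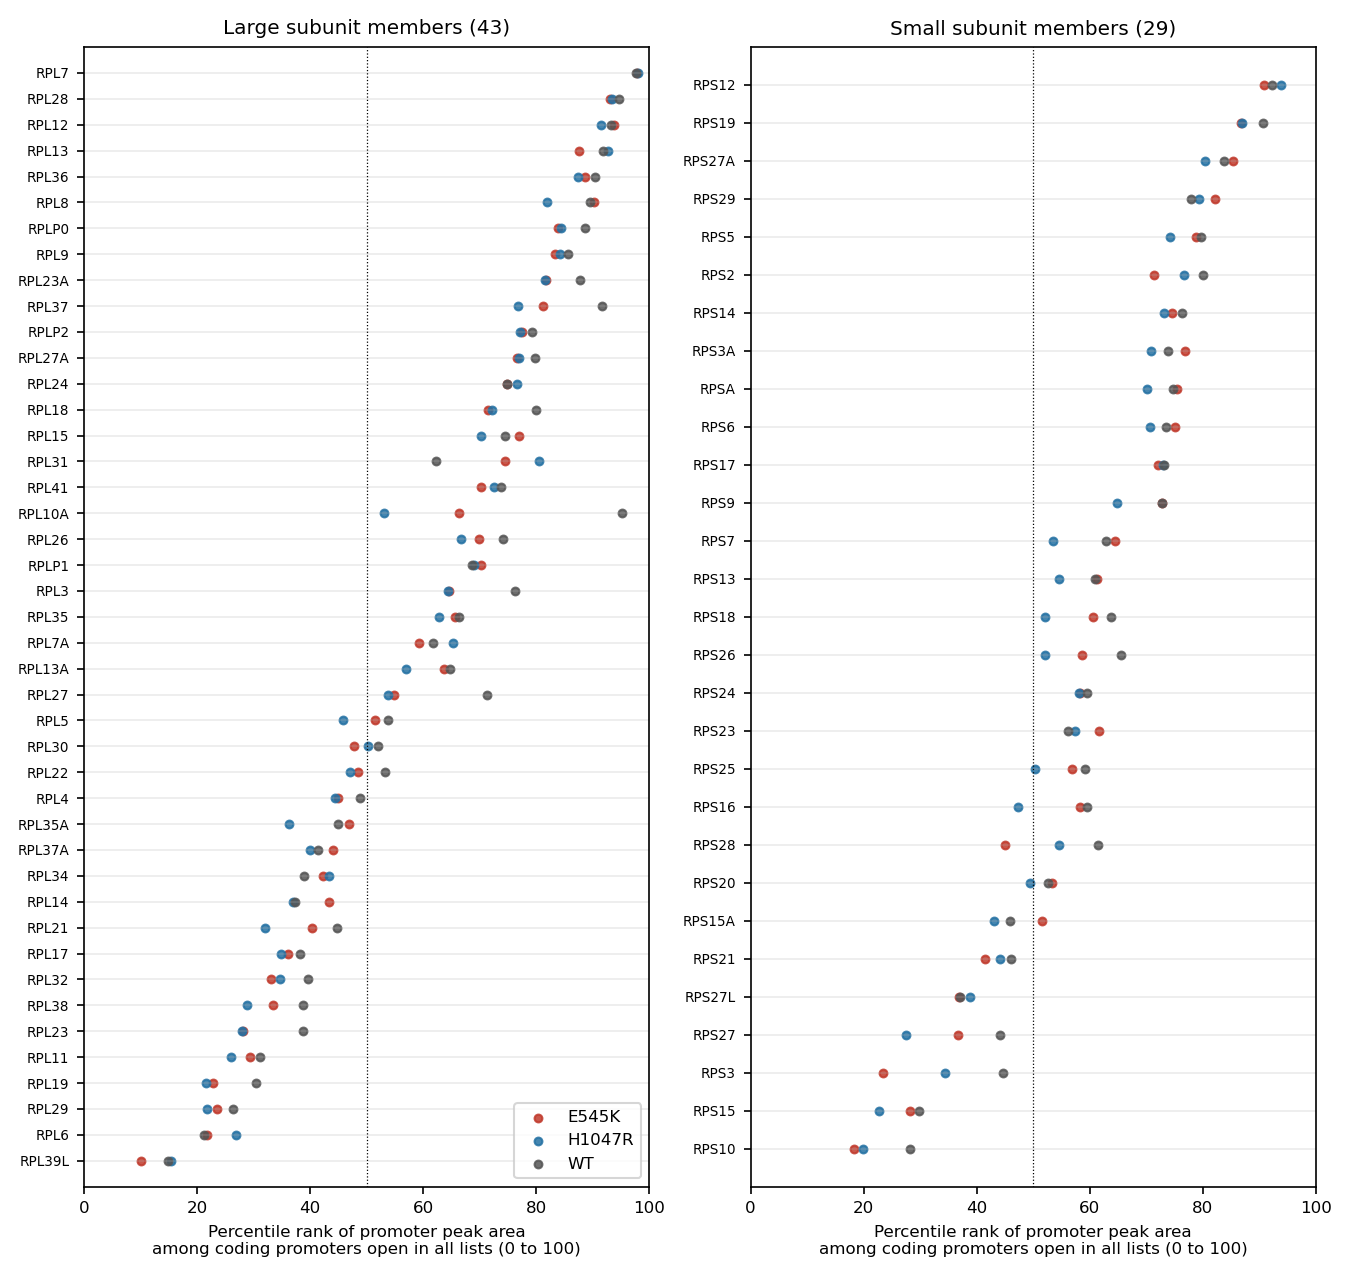
Percentile rank by area of the promoter peak (x axis, 0 to 100, among 12514 coding promoters) for each of 43 large subunit members and 29 small subunit members open in all lists (y axis, ordered by mean rank), with 1 point per genotype list (E545K red, H1047R blue, WT grey). RPL7 and RPS12 head their panels, RPL39L and RPS10 stand last, and RPL10A has the widest gap between lists, with WT at 95.2 and H1047R at 53.1.

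The members differed widely from each other. RPL7, a large subunit protein, had the highest mean rank, 97.8, with an area of 11316 in E545K, 11487 in H1047R and 11138 in WT. Its window also holds the start of RDH10, and its summit lay at −614 bp from the RPL7 start in every list, so the peak cannot be assigned to RPL7 alone. RPL28, a large subunit protein, came next by mean rank (93.7), with areas of 8062 in E545K, 8561 in H1047R and 9105 in WT. RPL12, which sits at the base of the ribosomal stalk, had 8266 in E545K, 7897 in H1047R and 8558 in WT, in a window shared with the start of LRSAM1. RPS12, a small subunit protein, had 7362 in E545K, 8695 in H1047R and 8178 in WT, and was the highest of its subunit. RPL13, of the large subunit, completed the first 5 with a mean rank of 90.7.

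At the other end stood RPL39L, the paralog of RPL39, with an area of 1013 in E545K, 1640 in H1047R and 1492 in WT and a mean rank of 13.4. RPS10, a small subunit protein mutated in some patients with Diamond-Blackfan anaemia, an inherited failure of red cell production, had 1551 in E545K, 1973 in H1047R and 2355 in WT. RPL6, RPL29 and RPL19, all of the large subunit, had mean ranks of 23.3, 23.9 and 25. Genes whose products are needed in nearly equal amounts had promoter peaks that ranged over most of the scale of ranks within a list.

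The 3 stalk proteins RPLP0, RPLP1 and RPLP2, which recruit the translation factors to the ribosome, stood above the middle. RPLP0 had a rank of 83.8 in E545K, 84.4 in H1047R and 88.6 in WT. RPLP1 had 70.3 in E545K, 69.1 in H1047R and 68.6 in WT, and RPLP2 had 77.4 in E545K, 77.2 in H1047R and 79.2 in WT. RPL5 and RPL11, which with the 5S rRNA bind MDM2 when ribosome assembly is disturbed, stood lower. RPL5 had 51.4 in E545K, 45.7 in H1047R and 53.8 in WT, and RPL11 had 29.3 in E545K, 26.0 in H1047R and 31.1 in WT. Neither differed between lists by as much as 10 points.

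Of the small subunit proteins with roles outside the common one, RPS6 had a rank of 75.1 in E545K, 70.6 in H1047R and 73.5 in WT. RPS14, whose loss underlies the anaemia of the 5q deletion syndrome, had 74.5 in E545K, 73.2 in H1047R and 76.3 in WT. RPS19, the gene most often mutated in Diamond-Blackfan anaemia, had 86.7 in E545K, 86.9 in H1047R and 90.7 in WT. RPSA, also known as a laminin receptor, had 75.4 in E545K, 70.1 in H1047R and 74.8 in WT. RPS27L, the p53 target, had 36.9 in E545K, 38.7 in H1047R and 37.1 in WT. For these 5 genes the genotypes lay within a few points of each other.

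Summits sat close to the start and mostly just before it. The median summit position of the members was −73 bp from the start in E545K, −76 bp in H1047R and −74 bp in WT, where negative is upstream, against −58, −63 and −62 bp for all open coding promoters. The summit lay within 200 bp upstream of the start in 62 members in E545K (82.7%), 61 in H1047R (81.3%) and 63 in WT (84.0%), against 63.0%, 64.5% and 64.5% of all. In 52 of 75 members the summits of the 3 lists lay within 10 bp of each other (50.4% of all open promoters). A promoter peak covered the start in every list in 74 of the 75 members, a count not taken over all open coding promoters. The exception was RPL41, which encodes the smallest ribosomal protein. Its largest peak had its summit 1530 bp downstream of the start in WT, and a smaller peak, with an area of 2747 in E545K, 3303 in H1047R and 3359 in WT, covered the start.

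**Figure D3:**
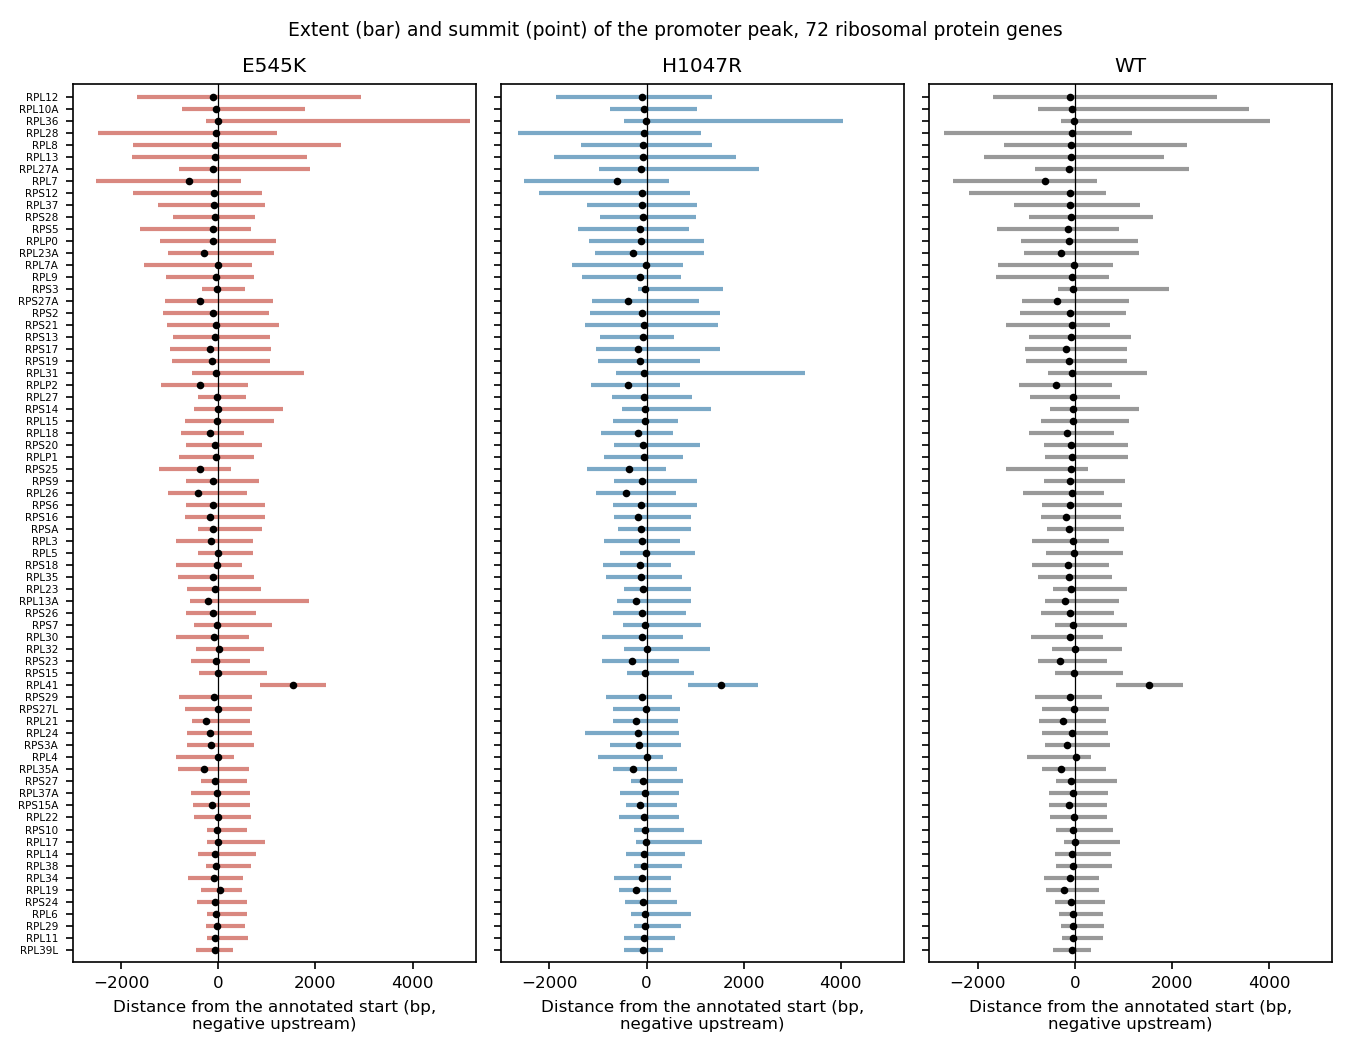
Extent of the promoter peak (bar) and its summit (point) by distance from the annotated start (x axis, bp, negative upstream) for 72 members (y axis, ordered by extent in WT) in the E545K, H1047R and WT lists. Summits line up just upstream of the start, at medians of −73, −76 and −74 bp over all 75 open members, and RPL41 stands out with its summit 1530 bp downstream in WT.

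The first comparison was that of E545K with WT, which asks how the helical domain mutation relates to promoter accessibility. By area the members ranked slightly lower in E545K, with a median shift of −2.01 percentile points against −0.54 for all open coding promoters. The shift was negative in 53 members (70.7%, against 55.5% of all) and positive in 22 (29.3%, against 44.4%). It reached 10 points or more downward in 8 of 75 members (10.7%), beside a background of 6.76% of open coding promoters, and upward in 1 member (1.33%), beside 7.8%. RPL10A, RPS3, RPS28, RPL27, RPL3, RPL23 and RPL37 were among the 8, and the 1 was RPL31. The direction of the median depended on the measure of strength. By summit −log10 p the median shift was −0.85, with 8 members lower (10.1% of all) and 2 higher (9.84% of all), and by area per base of peak, a measure added after the data were seen, it was 2.65.

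In H1047R against WT, the comparison for the kinase domain mutation, the members also ranked lower. The median shift was −4.12 points against −0.32 for all open coding promoters. The shift was negative in 62 members (82.7%, against 53.1% of all) and positive in 13 (17.3%, against 46.8%). A downward shift of 10 points or more was present in 11 of 75 members (14.7%), beside a background of 6.7%, and an upward one in 1 member, beside 7.48%. By summit −log10 p the median was −4.00, with 13 members lower (8.53% of all) and 0 higher (9.25% of all). The median lay between −5.13 and −3.51 under all 15 alternatives that gave a median, area per base included. Both comparisons use the same WT list, so the WT values of a member enter both.

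**Figure D4:**
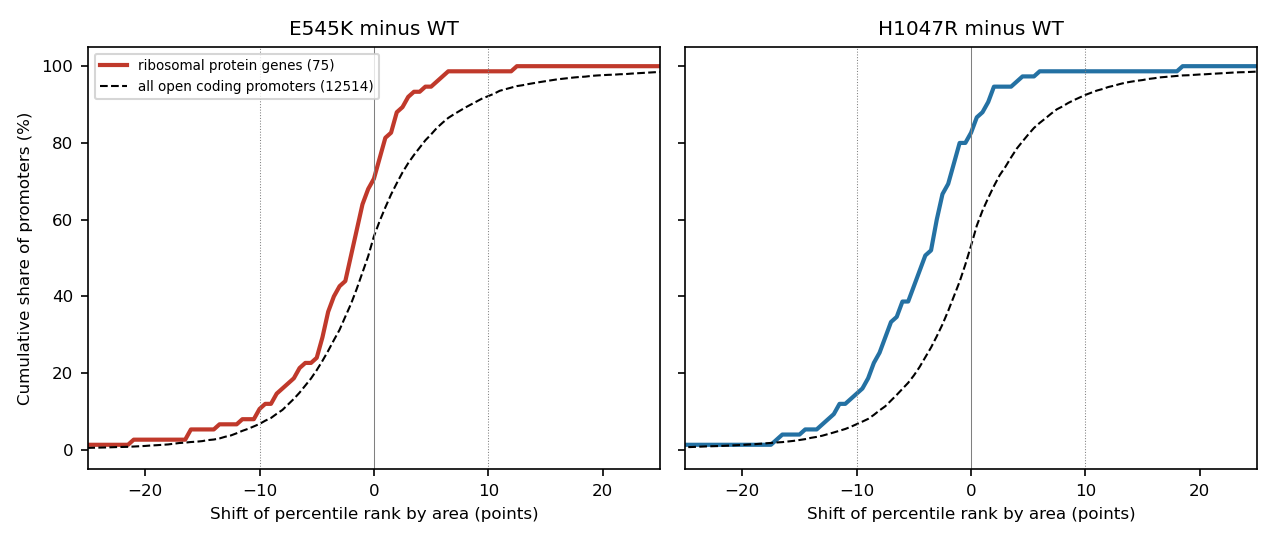
Cumulative share (%, y axis) of the 75 members (coloured line) and of all 12514 open coding promoters (dashed line) by the shift of percentile rank by area (x axis, points), for E545K minus WT and H1047R minus WT. Dotted lines mark 10 points either way, and the x axis ends at 25 points either way. The median shift of the members is −2.01 in E545K and −4.12 in H1047R, against −0.54 and −0.32 for all.

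In E545K against H1047R the median shift was 1.31 points, against −0.36 for all open coding promoters. The shift was positive in 49 members (65.3%, against 46.0% of all) and negative in 26 (34.7%, against 53.9%). RPL10A, RPS16, RPS7 and RPL35A ranked 10 points or more higher in E545K, 4 of 75 members beside a background of 7%. A rank 10 points or more lower in E545K was found for 2 of 75 members, RPS3 among them, beside 6.04%. By summit −log10 p the median was 2.67, with 5 members higher (8% of all) and 0 lower (7.96% of all).

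By subunit, the median shift in E545K against WT was −2.69 for the large and −1.29 for the small subunit members. In H1047R against WT it was −3.80 for the large and −4.65 for the small subunit. In E545K against H1047R it was 0.75 for the large and 4.26 for the small subunit. In that pair 22 of 31 small subunit members (71.0%) and 27 of 44 large subunit members (61.4%) ranked higher in E545K, against 46.0% of all. The difference between the subunits was not tested.

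By area, other genes of the translation machinery gave a different order of the knock-ins. Mitochondrial ribosomal protein genes had a median shift of −2.40 in E545K against WT and −0.62 in H1047R against WT. Translation factors had −2.98 in E545K and −0.64 in H1047R, each against WT. Ribosome biogenesis genes had −1.07 in E545K and 0.11 in H1047R. The 7 further ribosome-associated genes had −6.03 in E545K and −3.28 in H1047R. By area, the cytosolic set was the one of these 5 groups whose median was lower in H1047R than in E545K. By summit −log10 p the 7 further ribosome-associated genes shared this order, with −3.14 in E545K and −4.00 in H1047R, each against WT, so it was not particular to the cytosolic set. These are descriptions of 3 lists and were not tested.

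**Figure D5:**
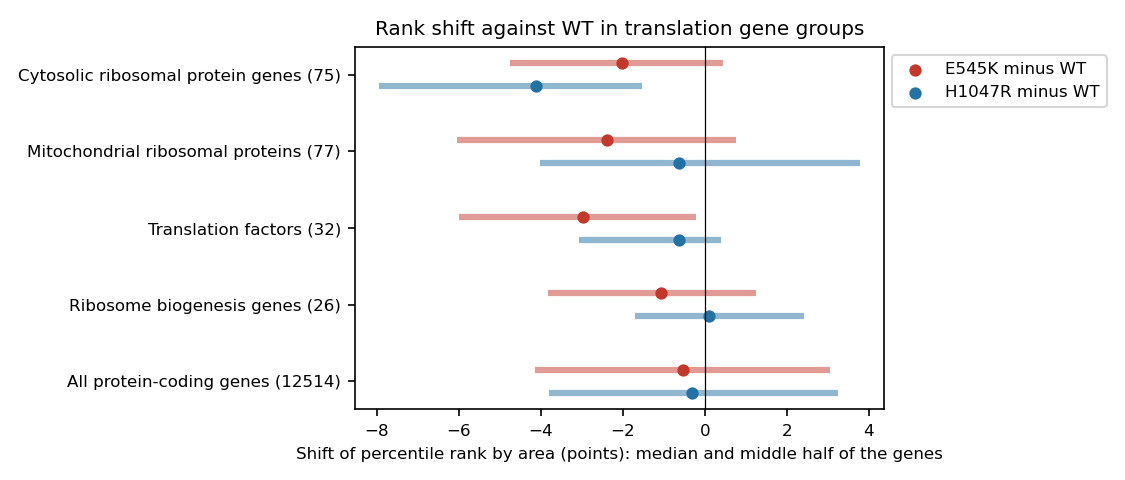
Shift of percentile rank by area (x axis, points) against WT in the cytosolic ribosomal protein genes and 3 other translation gene groups, with all open coding promoters below, for E545K minus WT (red) and H1047R minus WT (blue). Points are medians and bars span the middle 50% of the genes. The cytosolic set has medians of −2.01 in E545K and −4.12 in H1047R, and the mitochondrial set −2.40 and −0.62.

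RPL10A, a protein of the mobile L1 stalk of the large subunit, had the largest difference. Its start is at position 35468401 of chromosome 6 (hg38, plus strand; sequence above, with an NRF1 match 20 bases before the start). The promoter peak had an area of 4216 in E545K, 3927 in H1047R and 9327 in WT, and ranks of 66.4, 53.1 and 95.2. The shift was −28.8 points in E545K and −42.0 in H1047R, each against WT. In WT 1 peak ran from 35467653 to 35471988 and covered the whole gene, whereas the same stretch held 2 peaks in E545K and 2 in H1047R. Summed over the stretch, the area was 6615 in E545K, 7101 in H1047R and 9327 in WT, over 4062, 4028 and 4336 bp of peak. The summit −log10 p was 7.64 in E545K, 7.81 in H1047R and 8.91 in WT. By area, the shift thus went with a split of the peak in both knock-ins, and the summit rank was lower as well, by −10.4 points in E545K and −17.6 in H1047R.

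RPS3, a protein at the mRNA entry of the small subunit with its start at position 75399518 of chromosome 11, had an area of 1851 in E545K, 2861 in H1047R and 3278 in WT. In E545K the peak was 888 bp wide and was followed after a gap by a second of 904 bp, against single peaks of 1750 bp in H1047R and 2285 bp in WT. Its summit rank differed by −0.58 points in E545K against WT, so the shift of −21.1 by area went with the narrower peak.

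RPL31, a protein near the exit of the nascent chain tunnel, was the member that ranked at least 10 points higher in each knock-in than in WT by area. It had 4836 in E545K, 6021 in H1047R and 4364 in WT, with shifts of 12.2 and 18.3 points against WT. The peak was 2323 bp wide in E545K, 3898 bp in H1047R and 2036 bp in WT. Its summit −log10 p was 7.83 in E545K, 8.21 in H1047R and 8.54 in WT, and the summit rank differed by 0.60 points in E545K and −1.46 in H1047R, so that RPL31 had a wider but not a higher peak in H1047R.

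RPL27, of the large subunit, had 3485 in E545K, 3967 in H1047R and 5023 in WT, and its summit −log10 p was 8.33, 8.77 and 9.76. It stood lower by area and by summit in both knock-ins. RPS28, at the mRNA exit of the small subunit, had 2944 in E545K, 4002 in H1047R and 4319 in WT, with a width of 1693, 1969 and 2563 bp. Of the 8 members lower in E545K against WT, 5 had a peak of less than 80% of the WT width (RPL10A, RPS3, RPS28 and RPL27 among them), and 5 were also at least 10 points lower by summit. Of the 11 lower in H1047R, 2 had such a narrower peak (RPL10A and RPS3), and 7 were also at least 10 points lower by summit. Area grows with height, so it and the summit value are not independent. These counts were not taken over all open coding promoters that ranked lower. By area per base, the measure added later, RPS3, RPL27 and RPS28 instead ranked higher in E545K than in WT, by 34.4, 30.1 and 10.9 points. By that measure RPL10A differed by 1.22 and RPL31 by −25 points in H1047R against WT.

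Members whose peaks kept their width and stood lower included RPL3, a protein that reaches the peptidyl transferase centre, and RPL23, which can bind MDM2. Both were chosen after their values were seen. RPL3 had an area of 4093 in E545K, 4615 in H1047R and 5472 in WT over 1586, 1571 and 1584 bp, and a summit −log10 p of 6.79, 7.25 and 8.29. RPL23 had 2096 in E545K, 2479 in H1047R and 2933 in WT. RPL3 was lower than in WT in both knock-ins by area (−11.8 and −11.9 points) and by summit (−16.1 and −17.2 points).

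RPS27, a zinc finger protein of the small subunit, had 2533 in E545K, 2446 in H1047R and 3251 in WT, and a shift of −16.6 points in H1047R against WT. RPS26, which lines the mRNA exit channel and is another Diamond-Blackfan gene, had 3712 in E545K, 3862 in H1047R and 4596 in WT. Its widths were 1450, 1490 and 1510 bp, and its summit rank was lower by −25.5 points in H1047R against WT. RPS16 ranked at 58.3 in E545K, 47.3 in H1047R and 59.5 in WT, so that H1047R alone stood low. RPL21 and RPS18, chosen after their values were seen, completed the 11 with shifts of −12.6 and −11.7 points in H1047R against WT.

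RPL37, a zinc finger protein of the large subunit, lies on the short arm of chromosome 5, and its shift was shared by its neighbours. It had an area of 5558 in E545K, 5621 in H1047R and 8010 in WT, with shifts of −10.4 and −14.9 points against WT. The 16 other open coding promoters within 2.5 Mb had median shifts of −10.5 points in E545K and −9.16 in H1047R, each against WT. The part of the surrounding region in the result for RPL37 was not tested. Neighbours of the other members are not described here. Without the short arm of chromosome 5 the members' median shift was −1.99 in E545K and −4.04 in H1047R.

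Shifts were also described by base composition, whose part in them was not tested. Across quartiles of G+C content from low to high, the median shift of all open coding promoters lay between −0.82 and −0.19 points in E545K. In H1047R it went from −0.66 to −0.38, −0.16 and −0.10. The 42 members in the lowest quartile had medians of −2.30 in E545K and −4.29 in H1047R. The 26 in the second had −1.83 and −4.07, the 7 in the third −1.19 and −3.48, and the highest quartile held 0 members. In each quartile with members, their median was below that of all promoters there in both knock-ins.

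Members with the pyrimidine tract (63) had a median rank of 64.5 in E545K, 62.8 in H1047R and 64.7 in WT. Open members without it (12) had 54.1 in E545K, 52.9 in H1047R and 66.2 in WT. Median shifts were −1.81 with the tract and −4.38 without it in E545K against WT, and −3.86 and −4.89 in H1047R against WT.

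The order of the members was much the same in the 3 lists. The Spearman correlation of the members' ranks, across 75 promoters that share their sequence between lists, was 0.945 between E545K and WT, 0.935 between H1047R and WT and 0.972 between E545K and H1047R. Over all 12514 promoters it was 0.953, 0.954 and 0.960. The ranks of the 3 lists lay within 10 points of each other in 59 of 75 members (74.3% of all open promoters).

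Members had a median length of 5548 bp, from 772 to 80356 bp. Within 26 of them lay 58 annotated small nucleolar RNAs (snoRNAs), most of which guide the modification of rRNA, with up to 5 in one gene, as in RPL4. RPL4 had a rank of 44.9 in E545K, 44.3 in H1047R and 48.8 in WT. Members are spread over the autosomes, with 12 on chromosome 19, 8 on chromosome 3 and 6 on chromosome 17. The window of 16 members held the start of another protein-coding gene, such as RPL7 (RDH10), RPL12 (LRSAM1), RPL9 (LIAS) and RPS27A (CLHC1). More than 1 peak in the window was found for 6 members in E545K, 7 in H1047R and 8 in WT, beside 6.38%, 7% and 7.72% of all open coding promoters. In 62 of the 75 members every list had 1 peak in the window.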

How the data were processed

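Open chromatin was profiled by ATAC-seq in 2 E545K, 2 H1047R and 2 WT samples of MCF-10A, and 1 peak list per genotype was deposited. Per the submitters' processing notes, Trim Galore 0.4.0, cutadapt, FastQC, SAMtools and Genrich 0.6.1 were used with hg38. No aligner is named in these sources. Per the labels, both samples of a genotype share 1 list, so no value per sample, depth or replicate error can be had, and no test was made. The deposited signal of each peak is an area, summed along the curve that Genrich drew. The deposited −log10 p belongs to the summit position and is unadjusted. The deposited score is capped and was not used, and neither was the column for adjusted values. No peak ran past an hg38 chromosome end.

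Computation used Python 3.11.15, pandas 2.3.3, numpy 2.4.6 and scipy 1.17.1, with matplotlib 3.10.9. Starts were those of GENCODE release 44 canonical transcripts on the 22 autosomes. A promoter peak overlapped 1 kb either side by at least 1 bp, and the peak with the largest area was used. Percentile ranks were taken within each list among 12514 coding promoters open in all 3 lists, and a shift of 10 points was the threshold. Sequence came from the hg38 reference. The members, gene lists, markers, motifs and thresholds were chosen with earlier results of these data known. Named members were the 5 highest and 5 lowest by mean rank, the 5 largest shifts in each direction per comparison, those with no peak, with several peaks or with another start in the window (up to 5 of these), and 8 with known roles. RPL3, RPL23, RPL21 and RPS18, and RPLP1 and RPLP2 beside RPLP0, were named outside this rule. The counting and ranking were tested on simulated data, a copy of the WT list with small random changes of area. All 200 removed promoter peaks were found. The threshold of 10 points found 167 of 200 doubled areas and 155 of 200 halved ones. It called 6 of 12272 unchanged promoters. The simulated list kept the edges of its remaining peaks, and no peak was split or joined. The count therefore does not give the rate of false calls between the real lists. Window counts matched those of bedtools 2.31.1 in all 57333 windows. Counts and medians cover all members, but values of some single genes are not reported or drawn here. Wilson intervals cover counting error only.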

Additional observations from a re-analysis of the deposited data

How the results depend on the processing

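No paired analysis was possible because each list pools both samples of a genotype and holds no values per sample, and leaving out replicates was not run for the same reason. Each main result was compared with its value under the alternative settings run for it. Of these pairs of result and setting, 191 were labelled the same, 36 moved and 1 turned round. A median counted as the same only if it kept its sign and also stayed within 1.5 times. A share counted as the same if it stayed within the Wilson interval of its main value. Added with the data in view were area per base, the peak covering the start, and runs without RPL10A, RPL31 and RPS3 or without chromosome 5's short arm. With strength by summit −log10 p, the share of members in the upper 25% was 49.3% in E545K, 42.7% in H1047R and 46.7% in WT. Median shifts were then −0.85 in E545K against WT and 2.67 in E545K against H1047R. Against WT, 2 members were higher in E545K (9.84% of all) and 0 in H1047R (9.25% of all). In E545K against H1047R, 0 were lower (7.96% of all). RPL31 turned to −1.46 in H1047R against WT and RPS3 to 6.90 in E545K against H1047R. With the summed area of the window, 1 member was lower in E545K against H1047R (6.03% of all). Without windows that hold another coding start, the median of E545K against H1047R was 0.80, with 2 members higher (7.26% of all). At a threshold of 5 points, 4 of 75 members were higher and 18 lower in E545K against WT (17.8% and 20.8% of all promoters), 2 and 32 in H1047R against WT (17.8% and 19.4%), and 21 and 9 in E545K against H1047R (17.4% and 18.1%). At 20 points these counts were 0 and 2 (2.34% and 1.03%), 0 and 1 (2.16% and 1.29%), and 0 and 0 (1.67% and 1.24%). By area per base the median of E545K against WT turned to 2.65 (0.17 for all promoters), with 15 members higher (17.9% of all), and RPS3, RPL27 and RPS28 turned to 34.4, 30.1 and 10.9. In H1047R against WT 9 members were then higher and 22 lower (17.7% and 17.4% of all), and RPL31, RPL10A and RPS3 turned to −25, 1.22 and 4.42. In E545K against H1047R the median was 5.91 (−0.19 for all), with 25 higher and 7 lower (17.7% and 17.9% of all), and RPL10A and RPS3 turned to −13.0 and 30.0. A narrower peak of like height has a larger area per base by construction. Without RPL10A, RPL31 and RPS3, 0 members were higher and 6 lower in E545K against WT (7.8% and 6.76% of all), 0 were higher in H1047R against WT (7.48%) and 1 was lower in E545K against H1047R (6.04%). With the tract exactly at the start its share was 71.4%. In the window from 100 bases before to 50 after the start, the share with an SP match was 46.8%, with a CCAAT box 22.1% and with AP-1 0%. The cause of the other moves was not tested. Depth is unknown and limits every value.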
